A study of Mus musculus with 6 samples.

Results

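Germinal centre B cell genes were described in splenic B cells of Bcl2-transgenic mice with and without Crebbp, which encodes the histone acetyltransferase CBP. The set holds 9 genes listed by name: the transcription factors Mef2b, Mef2c, Mybl1 and Lmo2, the receptor S1pr2, the signalling regulators Gcsam and Rgs13, the ephrin Efnb1 and the nuclear GTPase Nuggc. The array annotation's symbol gave 8 of the 9 genes, with 17 single-symbol probe sets, out of 18193 genes and 34945 single-symbol probe sets in all. Nuggc had none under its symbol and was not analysed here, and 1 probe set that names Mef2b together with another gene was not used. The study holds 6 Affymetrix arrays, 1 per mouse. The 3 Crebbp-floxed mice are labelled CBPF/F x EµBcl2 and the 3 Crebbp-deleted mice CBPΔ/Δ x EµBcl2, so both groups carry Bcl2 under the Eµ enhancer, which is active in B cells, and no group lacks the transgene. The labels used here give neither the Cre driver of the deletion nor the age or sex of the mice, and no immunization is recorded. Spleen cells had been frozen and thawed, and B cells were then enriched by removing CD43-bearing cells on beads. Levels are log2 intensities of a probe set, a difference is Crebbp-deleted minus Crebbp-floxed, and errors are SDs over 3 mice unless given as SE.

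Germinal centres are transient structures of spleen and lymph node follicles in which B cells, activated by antigen and T cell help, divide, mutate their antibody genes and are selected for affinity. Their B cells are directed by the repressor BCL6, whose gene MEF2B activates, are held in the follicle centre by S1PR2, which signals through Gα13, and switch on HGAL (Gcsam), RGS13, MYBL1, LMO2 and ephrin B1. CBP acetylates histones at enhancers that BCL6 represses, and its gene is often mutated in germinal centre lymphomas.

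The 6 arrays had median levels between 4.27 and 4.30. The B cell markers Ms4a1 (CD20) and Cd79b were bright in every mouse, between 12.43 and 12.80 and between 12.18 and 12.45. They are 2 of 8 measured B cell markers, of which 7 had a lower mean in deleted mice. Probe sets of 14 genes of other tissues, such as albumin and cardiac myosin, ranged from 2.01 to 5.53, and a level in that range has no clear distance from background. Among the germinal centre genes this holds for most values of Gcsam and Mybl1, and for the lowest values, mainly of floxed mice, of Mef2b, Rgs13, S1pr2 (1428176_at) and Efnb1 (1418285_at and 1451591_a_at). Over all genes limma called 142 (0.781% of 18193) at a Benjamini-Hochberg adjusted p under 0.05, 99 higher and 43 lower in deleted mice. The library of floxed sample 3 stood apart from the other floxed mice, with 163 genes (0.896%) at least 1 log2 unit above both of them, against 29 and 47 genes for floxed samples 1 and 2. Values without it are given for the representative probe set of each germinal centre gene and for some of the other results. Deleted sample 3 had 124 such genes within its group, and deleted samples 1 and 2 had 12 and 10. By Xist and 3 Y-linked genes, the males were floxed sample 1 together with deleted samples 1 and 3.

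None of the 8 measured germinal centre genes was called by limma over all genes, where 0.781% were. Mef2c was lower and Efnb1 higher in every deleted mouse than in every floxed mouse, each with an unadjusted p under 0.05 (2 of 8 genes, against 14.8% of all genes) and without overlap between the groups (21.2% of all genes). The other 6 overlapped between the groups. In Mef2b, S1pr2, Gcsam and Rgs13 the 3 deleted mice lay together, above floxed samples 1 and 2 and below floxed sample 3. That arrangement was found in 1.58% of all genes. It was read from the values of these same genes, so its share over all genes is a description and no test. Deleted mice had the higher mean in 6 of the 8 genes, and the median difference was 0.57 against 0.01 over all genes. Without floxed sample 3 the median was 1.12 against 0.01 over all genes, and 4 of the 8 genes (Mef2b, Gcsam, Rgs13 and Efnb1) rose (limma adjusted p from 0.0044 to 0.022), where 1.24% of all genes passed and 0.945% passed upward. Its distance from the other floxed mice was seen in these same genes, so the comparison without it is no independent one. In a bulk sample, a changed share of germinal centre cells and a changed amount of RNA of a gene per cell cannot be told apart.

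**Figure D1:**
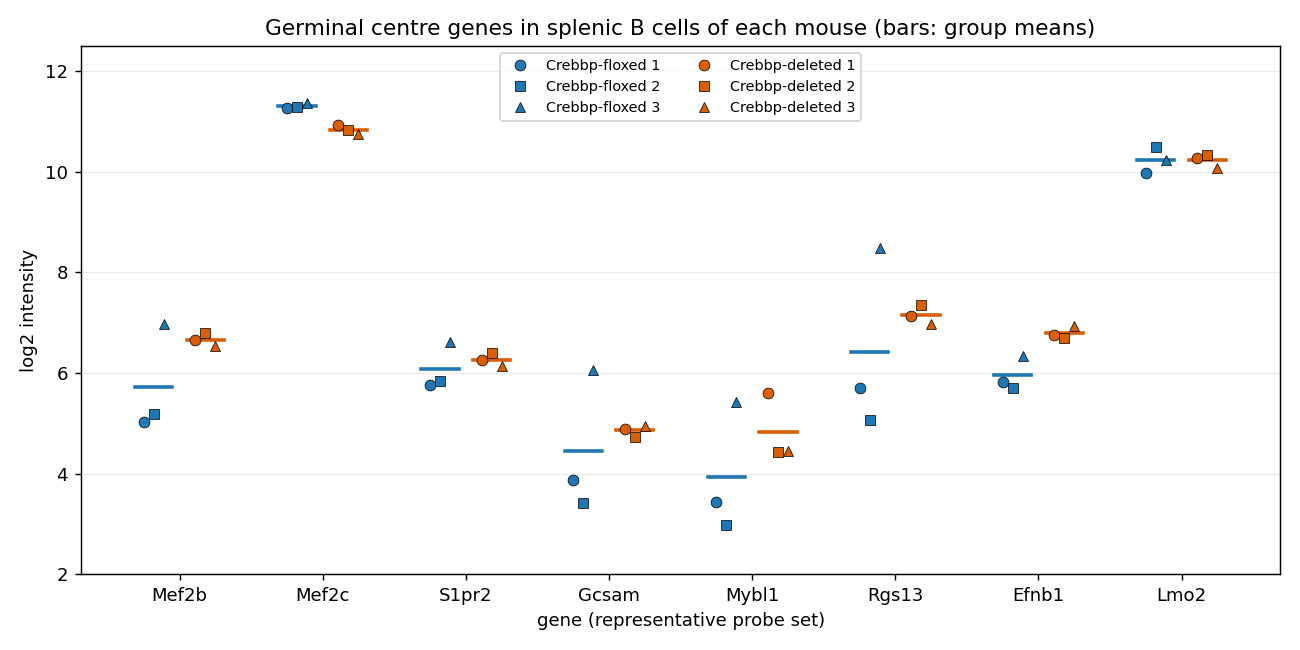
Level (log2 intensity, y axis) of the representative probe set of each germinal centre gene (x axis) in each mouse, blue for Crebbp-floxed and orange for Crebbp-deleted, with bars at the group means. The blue triangle, floxed sample 3, is the highest floxed mouse in 7 of the 8 genes, against 29.4% of all genes. Mef2c and Efnb1 are the genes whose groups do not overlap.

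Among the transcription factors, Mef2b encodes the MADS-box protein that activates Bcl6 in germinal centre B cells. Its probe set 1421541_a_at read 5.03, 5.19 and 6.98 in floxed samples 1, 2 and 3 and 6.66, 6.80 and 6.53 in the deleted samples. The deleted mice thus lay close to each other and 0.32 log2 units below floxed sample 3 on average, while floxed samples 1 and 2 were the lowest. The means were 5.73 ± 1.08 and 6.66 ± 0.13, a difference of 0.93 ± 0.47 (SE, limma adjusted p = 0.408) that is smaller than the SD among the floxed mice. Without floxed sample 3 the difference was 1.56 ± 0.12 (SE, limma adjusted p = 0.0044), against floxed values that both lie in the range of genes of other tissues.

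Mef2c, a paralog of Mef2b that mature B cells use for survival and for proliferation after receptor stimulation, went the other way. Its brightest probe set, 1421027_a_at, read 11.27, 11.29 and 11.37 in the floxed samples and 10.92, 10.84 and 10.75 in the deleted samples. All 3 deleted mice lay below all 3 floxed mice, and the spread within either group was small, with SDs of 0.05 and 0.08. The difference was −0.47 ± 0.09 (SE, limma adjusted p = 0.068; 95% interval −0.68 to −0.26), a 1.39-fold lower intensity. It passed with an intensity trend in limma's variance prior (adjusted p = 0.038) and on log2 of the intensity plus 16 (adjusted p = 0.042), and over its other alternatives the adjusted p reached 0.209. The 4 other Mef2c probe sets had differences of −0.51, −0.26, −0.49 and −0.46, and in each the groups did not overlap, as in 21% of all single-symbol probe sets. Tested among all probe sets none of the 5 passed (limma adjusted p from 0.079 to 0.281, with 0.687% of probe sets called). This difference was of like size without floxed sample 3, when the value at 1421027_a_at was −0.44 ± 0.11 (SE, limma adjusted p = 0.127).

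Mybl1 encodes A-MYB, a transcription factor of the MYB family that marks dividing germinal centre cells. Probe set 1456951_at read 3.43, 2.98 and 5.42 in the floxed samples and 5.60, 4.43 and 4.46 in the deleted samples. It was the gene with the widest spread among deleted mice, because deleted sample 1 stood more than 1 log2 unit above the other deleted mice, and it had the highest value of all. The difference of 0.89 ± 0.62 (SE, limma adjusted p = 0.563) was below the floxed SD of 1.30, and without floxed sample 3 it was 1.62 ± 0.36 (SE, limma adjusted p = 0.108). The dimmer probe set 1450481_at read between 2.25 and 3.28 in all mice, with a difference of 0.43.

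Lmo2, a LIM-domain adaptor used as a marker of germinal centre lymphoma, was level between the groups. Its probe set 1454086_a_at read 9.98, 10.48 and 10.24 in the floxed samples and 10.26, 10.34 and 10.08 in the deleted samples, and the deleted values fell within the floxed range. The difference was −0.01 ± 0.15 (SE, limma adjusted p = 0.989), with a 95% interval from −0.35 to 0.33, and its sign turned when sex was added to the fit (0.086). Without floxed sample 3 it was −0.0026 ± 0.17 (SE, limma adjusted p = 0.996). Floxed sample 3 was not the highest floxed mouse here, unlike in the other 7 genes. Partners and relatives of LMO2 gave 0 of 11 calls in limma (1 with an unadjusted p under 0.05, against 14.8% of all genes). The one with the smallest p was Lmo4, a related adaptor, with a difference of 0.38 (limma adjusted p = 0.167). Endothelial and erythroid cells also express Lmo2. The summed intensity of 6 endothelial markers was 298 to 334 in floxed and 261 to 268 in deleted mice. Most of it came from Pecam1, at 7.86 to 8.06 in floxed and 7.48 to 7.74 in deleted mice. The other endothelial markers stayed at or below 5.20, in the range of genes of other tissues. Of the 6, 4 had a lower and 2 a higher mean in deleted mice. The sum of 8 erythroid and platelet markers was 138 to 159 in floxed and 148 to 261 in deleted mice. The part of these cells in the level of Lmo2 was not tested.

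S1pr2 is the sphingosine-1-phosphate receptor that confines germinal centre B cells, and its probe sets differed in size of effect. The brighter one, 1447880_x_at, read 5.76, 5.84 and 6.61 in the floxed samples and 6.26, 6.39 and 6.14 in the deleted samples. The other, 1428176_at, read 4.51, 4.44 and 6.80 in the floxed samples and 6.13, 5.98 and 5.95 in the deleted samples. At both, the deleted mice lay between floxed sample 3 and the other floxed mice, and the range was wider at 1428176_at. The differences were 0.19 ± 0.22 (SE, limma adjusted p = 0.741) at the representative and 0.77 ± 0.57 (SE, limma adjusted p = 0.591 among all probe sets) at 1428176_at. Without floxed sample 3 they were 0.46 ± 0.12 (SE, limma adjusted p = 0.147) and 1.54 ± 0.11 (SE, limma adjusted p = 0.0083 among all probe sets, where 0.833% of probe sets passed), so the choice of probe set decides whether the gene passes there. The difference at the representative shrank to 0.038 without floxed sample 1 (limma adjusted p = 0.972). Names ending in _x_at mark probe sets whose probes may also bind other transcripts.

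Rgs13, a GTPase-activating protein that shortens chemokine receptor signals in germinal centre B cells, had the widest range of the 8 genes. Probe set 1442263_at read 5.69, 5.06 and 8.49 in the floxed samples and 7.13, 7.35 and 6.97 in the deleted samples. Floxed sample 3 exceeded the next floxed mouse by 2.79 log2 units, the 6th largest such gap of 18193 genes. The group means were 6.41 ± 1.82 and 7.15 ± 0.19, and their difference of 0.74 ± 0.78 (SE, limma adjusted p = 0.722) was below the floxed SD. Without floxed sample 3 it was 1.77 ± 0.21 (SE, limma adjusted p = 0.016), while leaving out floxed sample 2 gave 0.061.

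Gcsam encodes HGAL, an adaptor of germinal centre B cells that limits cell motility and takes part in B cell receptor signalling. Probe set 1442582_at read 3.86, 3.41 and 6.06 in the floxed samples and 4.89, 4.73 and 4.95 in the deleted samples. The second probe set, 1420544_at, read 2.98, 2.84 and 5.91 in the floxed samples and 4.71, 4.03 and 4.89 in the deleted samples. Both showed the order of Rgs13, with floxed sample 3 above the deleted mice and the other floxed mice below them. The difference at 1442582_at was 0.41 ± 0.61 (SE, limma adjusted p = 0.812), turned to −0.11 without floxed sample 2, and was 1.22 ± 0.16 without floxed sample 3 (SE, limma adjusted p = 0.022). At 1420544_at it was 0.63 with all mice and 1.63 without floxed sample 3 (limma adjusted p = 0.761 and 0.049 among all probe sets).

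Efnb1 encodes ephrin B1, a surface ligand of EphB receptors that germinal centre B cells display to follicular helper T cells and whose gene is X-linked. Its probe set 1418286_a_at read 5.83, 5.70 and 6.33 in the floxed samples and 6.76, 6.69 and 6.93 in the deleted samples. Every deleted mouse lay above floxed sample 3, the highest floxed one, and the means were 5.95 ± 0.34 and 6.79 ± 0.12. The difference was 0.84 ± 0.17 (SE, 95% interval 0.44 to 1.24), 1.79-fold, and missed the threshold (limma adjusted p = 0.078). It was 0.84 with sex as a term (limma adjusted p = 0.154) and 1.03 ± 0.12 without floxed sample 3 (SE, limma adjusted p = 0.016). The probe sets 1451591_a_at and 1418285_at had differences of 0.89 and 1.24, again with no overlap, and did not pass among all probe sets (limma adjusted p = 0.079 and 0.179). Without floxed sample 3 their differences were 1.07 and 1.69 (limma adjusted p = 0.028 and 0.024 among all probe sets, where 0.833% passed).

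**Figure D2:**
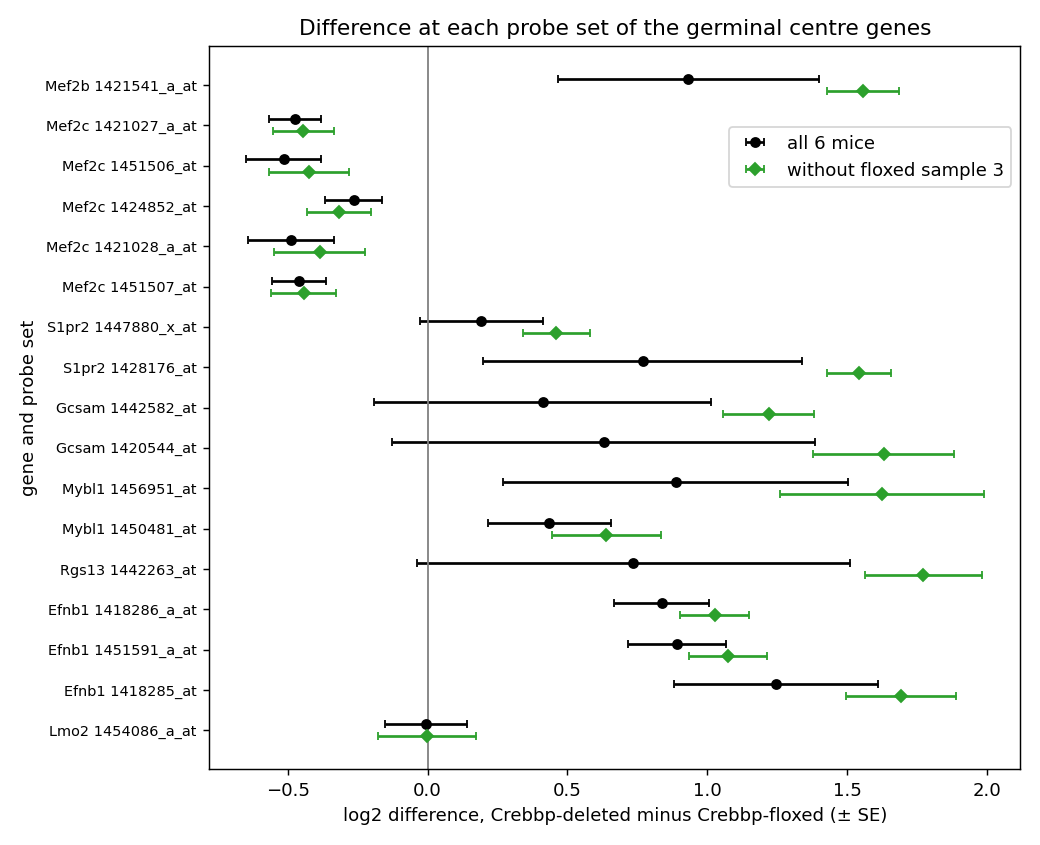
Log2 difference, Crebbp-deleted minus Crebbp-floxed (x axis, ± SE), at each of the 17 probe sets (y axis), in black for all 6 mice and in green without floxed sample 3. All 5 Mef2c probe sets lie below 0 and all 3 Efnb1 probe sets above it in both, while the differences of Mef2b, S1pr2, Gcsam, Mybl1 and Rgs13 are larger, and most SEs smaller, in green.

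The 4 genes with this shared order are shown by the 250 bases before their annotated start, from RefSeq (GRCm38.p6), to display what their promoters hold. Of the 9 listed genes 6 had an entry, with 8 windows. They were searched on both strands for the CRE, TGACGTCA, which binds the CREB proteins that recruit CBP, for the octamer ATGCAAAT, bound by OCT2 and its B cell coactivator, for the E box CAGGTG, bound by E2A proteins, and for the MEF2 box. Capitals mark matches, which did not overlap each other.
S1pr2 (chr9:20976794-20977043, minus strand): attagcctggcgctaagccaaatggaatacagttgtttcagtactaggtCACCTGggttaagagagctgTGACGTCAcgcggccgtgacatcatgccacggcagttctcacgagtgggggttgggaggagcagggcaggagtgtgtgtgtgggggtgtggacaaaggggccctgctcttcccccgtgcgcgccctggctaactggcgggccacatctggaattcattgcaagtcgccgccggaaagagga
Mef2b (chr8:70152511-70152760, plus strand): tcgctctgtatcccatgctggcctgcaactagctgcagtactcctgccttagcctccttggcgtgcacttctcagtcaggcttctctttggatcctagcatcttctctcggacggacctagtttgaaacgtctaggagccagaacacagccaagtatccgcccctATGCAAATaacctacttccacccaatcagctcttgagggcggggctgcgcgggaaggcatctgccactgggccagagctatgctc
Rgs13 (chr1:144177373-144177622, minus strand): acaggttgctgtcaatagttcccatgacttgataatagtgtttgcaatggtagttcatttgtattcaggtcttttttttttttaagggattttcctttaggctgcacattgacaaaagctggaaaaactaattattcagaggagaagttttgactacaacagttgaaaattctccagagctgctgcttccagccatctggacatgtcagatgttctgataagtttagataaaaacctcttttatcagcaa
Gcsam (chr16:45610190-45610439, plus strand): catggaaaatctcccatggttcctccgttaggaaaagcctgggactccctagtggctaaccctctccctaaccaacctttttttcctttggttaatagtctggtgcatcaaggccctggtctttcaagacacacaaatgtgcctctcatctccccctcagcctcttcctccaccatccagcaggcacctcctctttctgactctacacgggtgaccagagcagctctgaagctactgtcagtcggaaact
The S1pr2 window held a full CRE, 181 to 174 bases before the start, as 1.55% of 32851 promoter windows of this length do, and an E box on the other strand, as 17.2% do. The Mef2b window held an octamer 85 to 78 bases before the start, found in 1.6% of windows. The Rgs13, Gcsam, Efnb1 and Mef2c windows held no match to any of the 4 motifs, and the MEF2 box, present in 2.92% of all windows, matched none of the 8. The windows also differed in base composition, with 59.2% G and C and 14 CpG pairs in S1pr2, 56% and 9 in Mef2b, 51.6% and 3 in Gcsam and 36% and 0 in Rgs13.

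Floxed sample 3 was at least 1 log2 unit above both other floxed mice in 4 of the 8 genes (Mef2b, Gcsam, Mybl1 and Rgs13), against 0.896% of all genes. Deleted sample 1 was so placed within its group in 1 of the 8, Mybl1, and each of the other 4 mice in 0. The SD of the floxed mice exceeded that of the deleted mice in 7 of the 8 genes, all but Mef2c, against 53.1% of all genes. These counts describe the values given above and are no separate support for a difference between the groups.

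**Figure D3:**
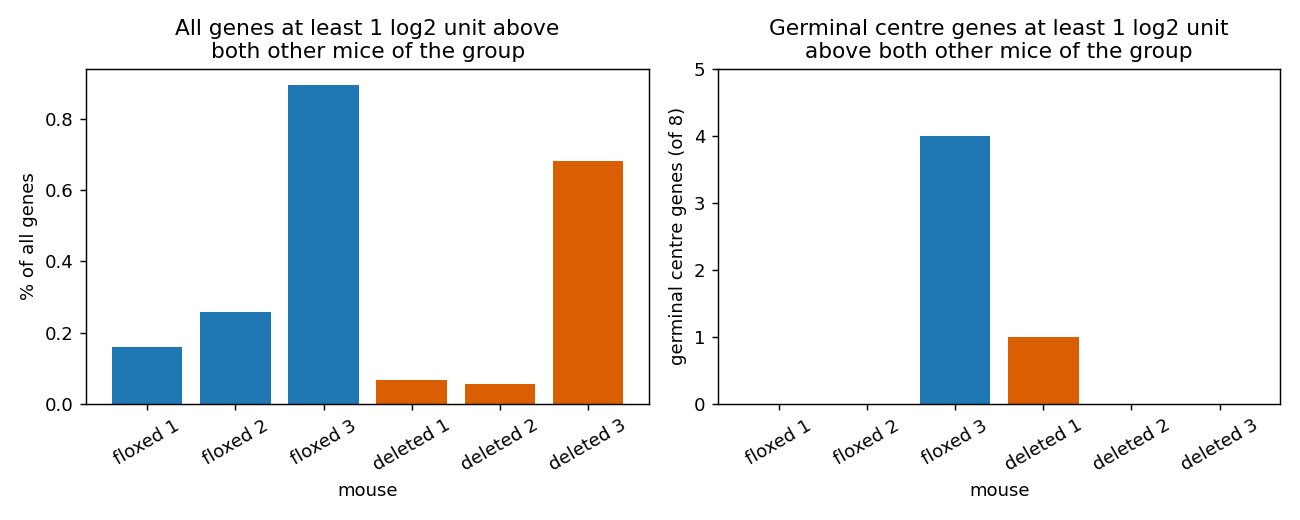
For each mouse (x axis), the share of all genes in percent (left) and the number of the 8 germinal centre genes (right) whose level lay at least 1 log2 unit above both other mice of its group. Floxed sample 3 has the tallest bar in both, 0.896% of all genes and 4 of the 8 germinal centre genes.

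Other germinal centre genes were followed in a list of 12, of which 11 were measured. Of these, 0 passed limma's test (0.781% of all genes called) and 1 had an unadjusted p under 0.05 (14.8% of all genes). Their median difference was 0.28 against 0.01 over all genes, and 7 had a higher and 4 a lower mean in deleted mice. Basp1, a membrane-bound scaffold protein, read 7.50, 6.64 and 9.74 in the floxed samples and 9.001, 9.33 and 8.96 in the deleted samples (difference 1.14, limma adjusted p = 0.498). Neil1, a base excision glycosylase, read 7.63, 7.43 and 8.42 in the floxed samples and 8.17, 8.26 and 8.21 in the deleted samples (difference 0.38, limma adjusted p = 0.507). Both showed the arrangement of Rgs13, as did Bcl6, the master repressor of the germinal centre. Bcl6 read 8.08, 8.03 and 8.76 in the floxed and 8.57, 8.26 and 8.25 in the deleted samples. Only these 3 of the 11 genes had that arrangement, against 1.58% of all genes. Bcl6 itself differed by 0.07 ± 0.20 (SE, limma adjusted p = 0.910; 95% interval −0.40 to 0.55). The death receptor Fas, which germinal centre B cells carry at high level, had a difference of 0.67 (limma adjusted p = 0.395). Il21r, the receptor of the helper cytokine IL-21, was the 1 gene of the 11 without overlap (21.2% of all genes), at −0.47 (limma adjusted p = 0.119). Tifa and Cxcr4 overlapped between the groups, with differences of −0.37 and 0.43 (limma adjusted p = 0.383 and 0.396). Without floxed sample 3, Basp1, Fas and Neil1 rose, by 2.03, 1.09 and 0.68 (limma adjusted p = 0.019, 0.018 and 0.048). In that fit 0.945% of all genes passed upward, and the list's median was 0.31. Floxed sample 3 was the highest floxed mouse in these genes, so this comparison too is no independent one.

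**Figure D4:**
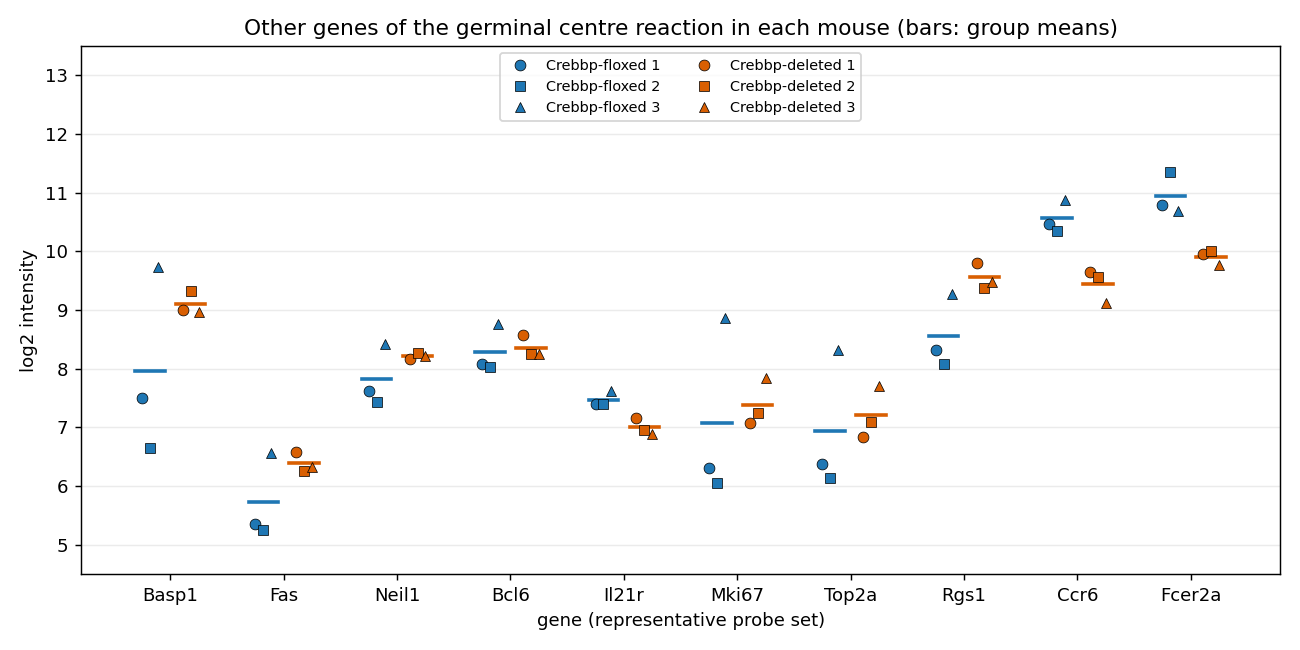
Level (log2 intensity, y axis) of 10 genes from the accompanying lists (x axis) in each mouse, with group means as bars. Basp1, Neil1, Bcl6, Mki67 and Top2a place the deleted mice between floxed sample 3 and the other floxed mice, whereas Il21r, Ccr6 and Fcer2a are lower, and Rgs1 higher, in all deleted mice.

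Cell division genes had the same arrangement in 7 of 11 measured genes, against 1.58% of all genes. Floxed sample 3 was the highest floxed mouse in 10 of the 11, against 29.4% of all genes. The arrangement was defined on floxed sample 3 after its values were seen, so these shares are no test. Mki67, the proliferation marker Ki-67, read 6.31, 6.06 and 8.87 in the floxed samples and 7.07, 7.24 and 7.85 in the deleted samples. Topoisomerase Top2a read 6.39, 6.14 and 8.32 in the floxed and 6.84, 7.09 and 7.71 in the deleted samples. The summed intensity of the 11 genes was 1557 in floxed sample 3, 452 and 391 in floxed samples 1 and 2, and 573 to 996 in the deleted mice. Limma called 0 of the 11, with 0 at an unadjusted p under 0.05, and also 0 without floxed sample 3, when 7 had an unadjusted p under 0.05 (against 14.2% of all genes) and the median difference was 0.87. Whether division and the germinal centre genes changed separately was not tested.

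Genes that work with the members gave no calls with all mice. Over all genes limma called 0.781%, and 14.8% had an unadjusted p under 0.05, the share to set beside the counts that follow. Of 9 MEF2 relatives and regulators 0 passed limma (4 with an unadjusted p under 0.05), among them Mef2d at −0.43 (limma adjusted p = 0.218) and the class IIa deacetylases Hdac5 at −0.33 (adjusted p = 0.165) and Hdac9 at 0.62 (adjusted p = 0.300). Of 13 genes of sphingosine-1-phosphate signalling 0 passed (1 with an unadjusted p under 0.05, Rhoa, at −0.24). The G protein gene Gna13 and the exchange factor gene Arhgef1, through which S1PR2 acts, had differences of −0.10 and −0.01, and S1pr1, the receptor that draws B cells out of follicles, 0.02. Of 8 other RGS genes of the same subfamily 0 passed with all mice (2 with an unadjusted p under 0.05). In deleted mice 6 of the 8 had a higher and 2 a lower mean. The smallest p belonged to Rgs18, which was lower without overlap, at −0.66 ± 0.17 (SE, limma adjusted p = 0.135). Over all genes 21.2% did not overlap between the groups. Rgs1, which also dampens chemokine signals in activated B cells, read 8.32, 8.08 and 9.27 in the floxed samples and 9.80, 9.38 and 9.48 in the deleted samples, without overlap (difference 1.00 ± 0.29, SE, limma adjusted p = 0.178). Without floxed sample 3, the highest floxed mouse in this gene, Rgs1 rose by 1.35 (limma adjusted p = 0.016). Of 7 ephrins and Eph receptors 0 passed (1 with an unadjusted p under 0.05, Efnb2, at −0.39 and dim, between 3.34 and 3.91). The MYB relatives Myb and Mybl2 had differences of −0.53 and 0.08 (limma adjusted p = 0.290 and 0.945). Of 8 measured enzymes of hypermutation and switching 0 passed (2 with an unadjusted p under 0.05). Those 2 were the translesion polymerase gene Rev1 at 0.42 and the mismatch repair gene Pms2 at −0.28 (limma adjusted p = 0.148 and 0.188), while Ung, which removes uracil, was at −0.59 (limma adjusted p = 0.346).

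Genes of resting follicular B cells, which germinal centre cells turn down, gave 0 of 7 calls in limma (0.781% of all genes called). Of the 7, 3 had an unadjusted p under 0.05 (14.8% of all genes). In deleted mice 4 had a higher and 3 a lower mean, with a median difference of 0.01, the same as over all genes. The chemokine receptor Ccr6 read 10.46, 10.36 and 10.87 in the floxed samples and 9.65, 9.56 and 9.12 in the deleted samples, a difference of −1.12 ± 0.19 (SE, limma adjusted p = 0.0504). The IgE receptor Fcer2a (CD23) had a difference of −1.03 ± 0.18 (SE, limma adjusted p = 0.057) and fell by 1.15 without floxed sample 3 (limma adjusted p = 0.043). The quiescence factor Klf2 stood 0.68 higher (limma adjusted p = 0.160). In floxed sample 3, Ccr6 was the highest and Fcer2a the lowest of the floxed mice.

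Markers of other cells were measured beside these genes, and their part in the results was not tested. Summed intensities of 9 plasma cell genes were 5960 to 6864 in floxed and 12042 to 18755 in deleted mice, and all 9 had a higher mean in deleted mice. Of these 9, 8 had an unadjusted p under 0.05 (14.8% of all genes), 8 did not overlap between the groups (21.2% of all genes), and 1, Jchain, rose (by 1.65, limma adjusted p = 0.011). Sums of 11 macrophage markers ran from 509 to 1667 in floxed and from 1553 to 3615 in deleted mice, with 0 calls (8 with an unadjusted p under 0.05). Floxed sample 3 stood at 922 in that sum, between floxed samples 2 and 1, and had the lowest plasma cell sum of all mice. Sums of 8 B cell markers were 23917 to 27812 in floxed and 19185 to 20647 in deleted mice, where Cd79a fell by 1.11 (limma adjusted p = 0.0093). Of these 8, 7 had a lower and 1 a higher mean in deleted mice. In 5 of the 8, every deleted mouse lay below every floxed mouse, and 4 had an unadjusted p under 0.05 (14.8% of all genes). The 10 T cell markers summed to 189 to 253 in floxed and 250 to 266 in deleted mice, with 0 calls, and floxed sample 3 was at 253. Pdcd1 and Il21, markers of follicular helper T cells, stayed at or below 2.88 in every mouse. Among 8 stromal and follicular dendritic cell markers (0 calls, 0 at an unadjusted p under 0.05), 6 endothelial markers (0 and 1) and 8 erythroid and platelet markers (0 and 1), none passed. Of 6 mast cell and eosinophil markers 1, Prg2, rose (by 2.38, limma adjusted p = 0.040, and 0.0514 without floxed sample 3), while Cpa3 and Epx stayed at or below 3.15.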

How the data were processed

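Splenic B cells of 6 mice were measured on 1 array each. Per the submitters' processing notes the authors used RMA (no version is named), and they deposited 1 intensity for each probe set of an array. RMA output is normally on a log2 scale, but these values run from 2.96 to 17022 and were read as linear intensities and log2-transformed, with no further normalization. Depth does not apply to arrays, and their number limits the precision.

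Probe sets were named through the platform annotation: of 45101, those with 1 symbol that are not among 64 controls (34945) were used, while 932 name several genes. Each of 18193 genes was represented by its probe set with the highest mean. The test was limma's moderated linear model (version 3.58.1, R 4.3.3; two-sided, no covariates, Benjamini-Hochberg over all genes, threshold 0.05), a procedure tested on simulated data. An exact permutation test of 3 against 3 mice cannot go below 0.1 and was not used. The members and the 19 other lists were chosen with earlier results of these data known. All members were named, and from the other lists genes past the test or among the 4 with the smallest p, besides genes named for their role. Figures used matplotlib 3.10.9.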

Additional observations from a re-analysis of the deposited data

How the results depend on the processing

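With all 6 mice, no germinal centre gene passed in the main setting, and none did after renewed quantile or median normalization, with only brighter genes, other choices of probe set, robust eBayes or sex as a term. Mef2c alone passed with a trend (1 gene, −0.47) and on log2 of intensity plus 16 (1 gene, −0.47), and at an adjusted p under 0.1 there were 2, Mef2c and Efnb1. Leaving out each mouse in turn gave 0 to 4 germinal centre genes and 0 to 3 of the other germinal centre genes. The differences then ran from 0.58 to 1.56 in Mef2b, 0.038 to 0.46 in S1pr2, 0.41 to 1.62 in Mybl1, 0.061 to 1.77 in Rgs13, −0.11 to 1.22 in Gcsam, 0.71 to 1.03 in Efnb1 and −0.14 to 0.12 in Lmo2, which was 0.086 with sex as a term. Over all genes the 142 calls became 240 of all probe sets, 37 with sex as a term, 449 at an adjusted p under 0.1 and 0 to 226 without single mice (0 in limma without floxed sample 1, with 1990 at an unadjusted p under 0.05, 226 without floxed sample 3, and 16, 45 and 62 without deleted samples 1, 2 and 3). Where no value is given for a cause, the cause was not tested. The labels do not say whether the replicate numbers pair the mice. Correlations of same-numbered deviations across genes were 0.033, 0.10 and 0.0059, not the highest for every mouse, and with so few mice cannot decide it. With the replicate block 126 genes and 0 of the 8 germinal centre genes passed. Dim values limit Gcsam and Mybl1 and the low floxed values of Mef2b and Rgs13: on log2 of intensity plus 16 their differences were 0.14, 0.43, 0.72 and 0.55.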

Other observations

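The genes by which floxed sample 3 most exceeded the other floxed mice were ranked after their values were seen. Besides Rgs13 (6th), Gcsam (17th) and Mybl1 (21st), the first 30 held the list genes Mki67 (8th), Basp1 (12th), Bub1 (14th), Ccnb2 (20th), Top2a (26th) and Birc5 (28th). Nrep ranked 1st, at 2.61, 2.81 and 6.25 in the floxed samples and 5.99, 6.71 and 3.90 in the deleted samples. Nt5e, the surface nucleotidase CD73, read 4.07, 3.86 and 6.30 in the floxed samples and 7.54, 7.54 and 6.70 in the deleted samples, so every deleted mouse lay above floxed sample 3. Tbx21, the transcription factor T-bet, read 4.63, 4.28 and 6.85 in the floxed and 6.35, 5.40 and 5.52 in the deleted samples, and Fgl2, a fibrinogen-like protein, 5.74, 4.72 and 8.18 in the floxed and 7.07, 7.14 and 6.74 in the deleted samples. Both placed the deleted mice between floxed sample 3 and the other floxed mice, as Rgs13 did.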
